A study of Mus musculus with 2 samples.

Results

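The β-adrenergic cAMP pathway was described in nuclei of mouse interscapular brown adipose tissue (BAT) through 9 genes, Adrb1, Adrb3, Gnas, Adcy3, Adcy5, Prkar2b, Pde3b, Pde4b and Pde4d. They were found by their symbols among the 32285 genes of the deposited matrices, and each was present once. Single-nucleus RNA-seq (snRNA-seq) was run on 1 library of WT mice (Srsf1 flox/flox, without Cre) and 1 library of KO mice (Adipoq-Cre; Srsf1 flox/flox), all males aged 8 weeks. Both groups carry the floxed Srsf1 allele, and the Adipoq regulatory sequences (those of the adiponectin gene) direct Cre to fat cells. With 1 library per genotype no test was possible, the number of mice in each library is not given in the sources used here, and genotype and library cannot be told apart. Captured RNA molecules were counted by their unique molecular identifiers (UMIs), with 93102814 UMIs in 12846 WT barcodes and 80090208 UMIs in 11495 KO barcodes. The 2 libraries shared 52 barcodes. After filtering, 12771 WT and 11378 KO nuclei remained, at a median depth of 3428 and 4355 UMIs. The median share of mitochondrially encoded UMIs was 1.10% in WT and 0.0489% in KO.

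In brown adipocytes, noradrenaline and its agonists bind β-adrenergic receptors, which activate the stimulatory G protein and adenylyl cyclase. The cyclase makes cAMP, cAMP releases the catalytic subunits of protein kinase A (PKA) from their regulatory subunits, and PKA drives lipolysis, the uncoupling protein Ucp1 and a set of rapidly induced genes. Phosphodiesterases break cAMP down and so end the signal. Brown and white adipocytes both use this pathway, and Adrb3 is the receptor that is largely restricted to adipocytes in rodents.

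Each nucleus was assigned to a class from summed UMIs of marker lists over the number that free RNA in the droplet would give, and the classes are marker-defined, adipocyte-like and so on, called by the plain name here. There were 4882 adipocyte nuclei in WT and 2125 in KO, with 322 and 1478 of adipose stem and progenitor cells (ASPCs), 2074 and 946 endothelial, 561 and 3257 immune, and 224 and 170 mural nuclei. A further 1682 WT and 1648 KO nuclei (13.2% and 14.5%) carried markers of more than 1 class. Another 2973 and 1720 (23.3% and 15.1%) could not be classified, and both kinds were left out. WT and KO adipocyte nuclei lay in different Leiden clusters, with 3371 of the WT nuclei in cluster 3 and 1947 of the KO nuclei in cluster 22. Endothelial nuclei also split, with 1431 WT nuclei in cluster 2 and 768 KO nuclei in cluster 9, whereas ASPC and mural nuclei of both libraries lay mostly in the same cluster. Immune nuclei shared their largest cluster, 5, but it held 43.0% of those of WT and 70.0% of those of KO. All 9 adipocyte markers were detected in the adipocyte nuclei of both libraries, and their summed level was 16439 counts per 1000000 UMIs (CPM) in WT and 12938 CPM in KO. The brown markers summed to 11905 CPM in WT and 1875 CPM in KO adipocyte nuclei, and the white markers Lep, Slc7a10, Nnat and Npr3 to 311 and 978 CPM, of which Npr3 made 130.5 and 667 CPM. Markers of other cells were low there but not absent, with 581 CPM of endothelial markers in WT and 155 in KO, and 139.7 and 338 CPM of immune markers.

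Srsf1, the splicing factor that Cre removes (chromosome 11 of GRCm38 from 88047373 to 88053755), was read first as a check of the labels. It reached 183 CPM (179 to 187) in WT and 60.4 CPM (56.8 to 64.3) in KO adipocyte nuclei, and the ranges are exact 95% Poisson intervals, which cover counting error only. Its log2 ratio (KO over WT, as throughout) was -1.60 (-1.69 to -1.50) in adipocyte nuclei. Elsewhere it was nearer to 0, at -0.62 (-0.83 to -0.41) in immune and -0.54 (-0.77 to -0.31) in endothelial nuclei. In mural nuclei it was -0.54 (-1.04 to -0.05) and in the ASPC class -0.26 (-0.52 to 0.005). Srsf1 was thus lower in KO in immune, endothelial and mural nuclei as well, with intervals that left out 0. All values below use the same scale, in which UMIs of a class were summed per library and divided by all UMIs of that class.

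The promoters of 7 of the 9 genes were in the RefSeq windows of GRCm38.p6, which reach from 250 bases before a transcript start to 50 after it, with 15 windows in all. Since the targets of cAMP are often driven by the cAMP response element, its letters were sought in them on both strands. The full element TGACGTCA was in none of the 15 windows and in 1.79% of the 32851 windows of all genes. Its core TGACG was in 5 windows of Adrb1, Gnas and Pde4b, beside 20.8% of all windows, and is shown in capitals below with 10 bases on each side, on the plus strand, which is the strand of each gene. The same site of Gnas lies in 2 overlapping windows.

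Adrb1 at chr19:56722017-56722041: tgcgggagccTGACGcgcggccccg

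Gnas at chr2:174327701-174327725: gaggttggggCGTCAtcaggctggt

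Gnas at chr2:174329780-174329804: tgtgaggggtCGTCAccaccgcggg

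Pde4b at chr4:102421511-102421535: tttggctgcaCGTCAattttctcat

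A GC box, GGGCGG, was in 6 of the 15 windows, beside 35.7% of all windows. Those 6 belong to 5 genes, Adcy3, Adcy5, Adrb1, Gnas and Prkar2b, so both cyclases have it, whose ratios went in opposite directions. The box occurred once in the first window of Adcy3 and 4 times in that of Adcy5. Their GC contents were 68.7% and 79%, beside a median of 52.7% over all windows. The boxes are in capitals in the Adcy3 site and in the 100 bases before the Adcy5 start, both on the plus strand, and a match describes the letters only. The other boxes of the Adcy5 window lie outside the printed bases.

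Adcy3 at chr12:4133356-4133381: cggggaggggCCGCCCgcctcctggg

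Adcy5 at chr16:35154764-35154863: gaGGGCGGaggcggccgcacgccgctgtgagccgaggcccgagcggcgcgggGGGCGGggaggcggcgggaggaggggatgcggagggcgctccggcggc

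In adipocyte nuclei, 6 of the 9 genes were at least 2-fold lower in KO, Gnas, Adcy3, Pde4b, Adrb3, Pde4d and Pde3b. Adcy5 was at least 2-fold higher, and Adrb1 and Prkar2b lay between these limits. Pde4d and Pde4b fell short of 2-fold when clusters were named by another rule, at log2 ratios of -0.75 and -0.87. That rule left the largest WT adipocyte cluster unnamed, so KO was compared with 239 WT nuclei of cluster 0 and 10 of cluster 22. Pde4d also fell short among nuclei with 0 and with at least 10 white-marker UMIs per 10000, at -0.75 and -0.98. All 9 had at least 50 UMIs over both libraries. Among all 15315 genes with that many UMIs in adipocyte nuclei, 17.5% were at least 2-fold lower in KO and 19.3% at least 2-fold higher, and the median log2 ratio was 0.08.

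Adrb3 encodes the β3-adrenergic receptor, the target of the β3-agonists used to activate BAT, and lies on chromosome 8 from 27225776 to 27250616. Its level was 325 CPM (319 to 329.9) in WT and 129 CPM (123 to 134) in KO adipocyte nuclei, from 14528 and 2137 UMIs. The level was thus 2.52-fold lower in KO, at a log2 ratio of -1.33 (-1.40 to -1.27), and the 2 intervals were far apart. The receptor had at least 1 UMI in 75.8% of the adipocyte nuclei of WT (median depth 6979 UMIs) and in 46.8% of those of KO (6223 UMIs). When each nucleus was thinned to 1000 UMIs, which left out 13 WT and 18 KO adipocyte nuclei, the shares were 26.5% (25.3 to 27.8) and 12.9% (11.5 to 14.4). The ranges of these shares are 95% binomial intervals over nuclei, which are not replicates. Endothelial nuclei, which should lack the receptor, had a thinned share of 8.46% in WT and 1.45% in KO, after 64 and 52 nuclei were left out.

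In WT endothelial, ASPC and mural nuclei Adrb3 was close to the level estimated for free RNA, an estimate that may be too high. It was 86.3 CPM (78.5 to 94.7) in endothelial nuclei against 83.4 CPM expected from free RNA, and 49.3 CPM (38.4 to 62.4) in ASPCs against 48.1. In WT mural nuclei it was 61.9 CPM (44.8 to 83.4) against 67.4, and the 4 classes other than adipocytes overlapped with their neighbours in the order of levels. In KO mural nuclei 1 UMI was counted. Immune nuclei were above free RNA, with 74.8 CPM (63.9 to 87.0) against 52.2 in WT and 10.2 CPM (8.77 to 11.8) against 5.79 in KO, as were KO ASPCs with 9.05 CPM (7.16 to 11.3) against 5.48. Its log2 ratios in the other classes were -2.88 for immune nuclei, -2.45 for the ASPC class and -2.29 for endothelial nuclei. The free-RNA level of Adrb3 was lower in KO as well, for example 13.0 CPM in endothelial nuclei beside a measured 17.6 CPM (12.6 to 23.9), and its part in these ratios was not tested.

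Adrb1, the β1-adrenergic receptor (chromosome 19 from 56722199 to 56733113), was less changed. Its level was 56.6 CPM (54.4 to 58.9) in WT and 35.1 CPM (32.3 to 38.0) in KO adipocyte nuclei, 1.61-fold lower in KO at a log2 ratio of -0.69 (-0.82 to -0.56). Among adipocyte nuclei with 0 white-marker UMIs the log2 ratio was -0.09 (-0.34 to 0.14). The log2 ratio was 0.16 under the other cluster naming rule, which left the largest WT adipocyte cluster unnamed. In mural nuclei, the contractile and pericyte cells of vessels, it was 34.5 CPM (22.1 to 51.4) in WT and 53.0 CPM (35.8 to 75.7) in KO, from 24 and 30 UMIs. The log2 ratio there was 0.62 (-0.21 to 1.46), so a difference was not detectable at this depth. In KO the mural and adipocyte levels overlapped, whereas in WT adipocyte nuclei were highest. In WT ASPC and endothelial nuclei it did not exceed free RNA, at 9.29 CPM against 9.34 and 12.3 CPM against 16.2.

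Gnas, which encodes the α-subunit of the stimulatory G protein, had the lowest ratio of the 9. Its level in adipocyte nuclei was 2089 CPM (2076 to 2102) in WT and 258 CPM (250.3 to 266) in KO, 8.10-fold lower in KO, at a log2 ratio of -3.02 (-3.06 to -2.97). After thinning, 79.7% of WT and 22.7% of KO adipocyte nuclei had a Gnas UMI, beside 53.7% and 30.8% of endothelial nuclei. Among all genes tested in adipocyte nuclei, 3.24% had a lower ratio. In WT, adipocyte nuclei had the highest Gnas level of the 5 classes. In KO, they were below ASPC (352 CPM, 339.9 to 365), endothelial (377 CPM, 353 to 403) and mural nuclei (309 CPM, with an interval of 265 to 359 that overlapped that of adipocyte nuclei by little), and above immune nuclei (156 CPM, 151 to 162). Gnas was also lower in KO in the other classes. The log2 ratios were -1.63 (-1.73 to -1.53) for immune, -1.16 (-1.42 to -0.91) for mural and -1.10 (-1.20 to -0.99) for endothelial nuclei, and -0.69 (-0.80 to -0.57) for the ASPC class. In WT these classes exceeded the free-RNA level by less than 2-fold, with 806 CPM against 515 in endothelial and 484 against 323 in immune nuclei, and the part of free RNA in these ratios was not tested.

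The Gnas locus (chromosome 2 from 174284320 to 174346744) overlaps Gm20721, a gene on the opposite strand that the files count as well. Gm20721 fell by 5.50 on the log2 scale in adipocyte nuclei, from 454 CPM in WT to 10.1 CPM in KO. Adcy3 overlaps Cenpo (51.6 CPM in WT and 17.5 in KO) and Adrb3 overlaps Gm45470 (52.8 and 27.7 CPM), both on the opposite strand. Whether the counting used the strand is not given in the sources used here, and without it reads of a gene and its antisense partner cannot be told apart.

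**Figure D1:**
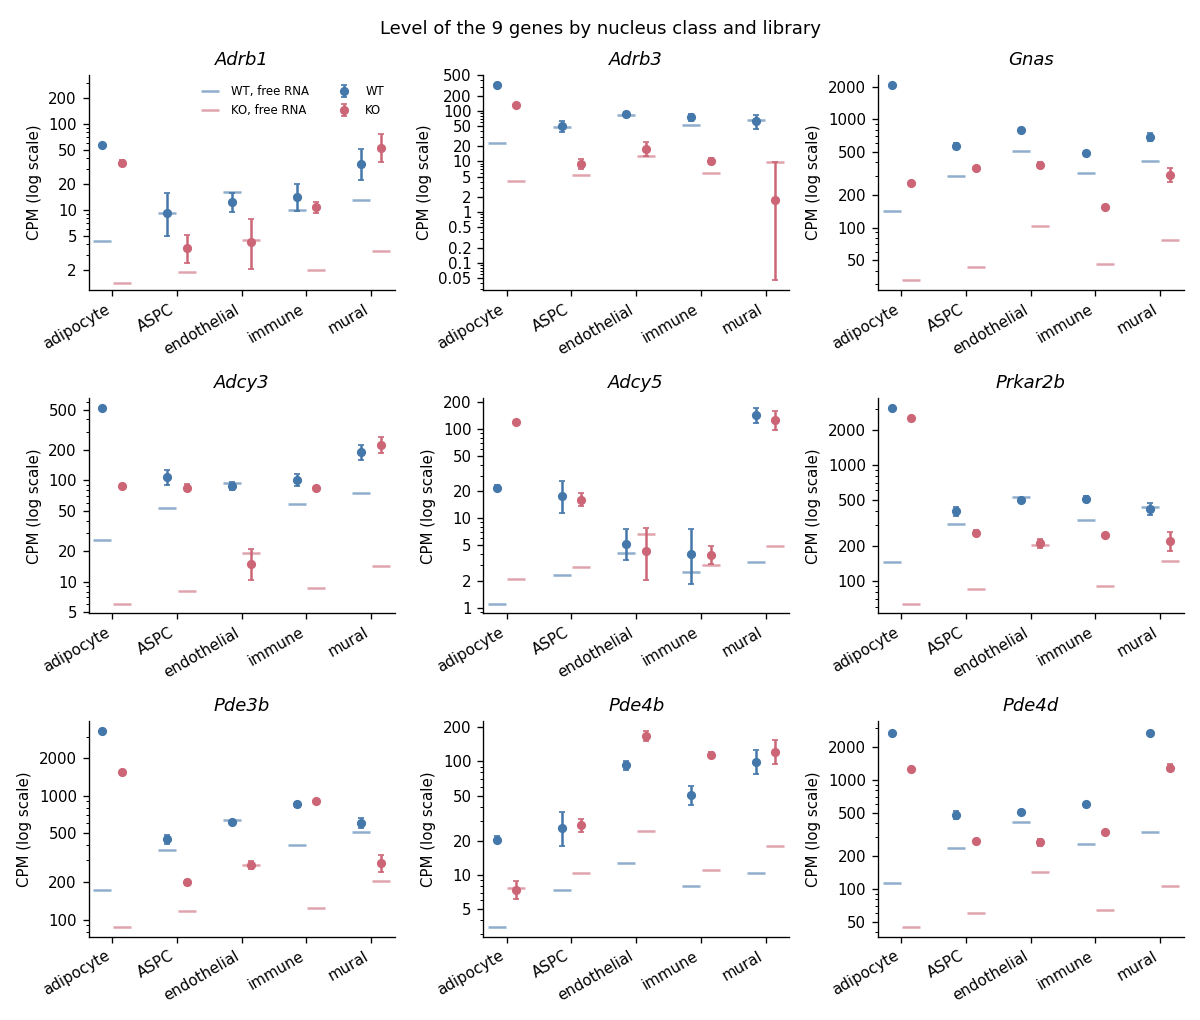
Level of each gene in CPM (log scale) in the 5 classes, with WT in blue and KO in red, points for the summed level and bars for exact 95% Poisson intervals; short horizontal marks show the level that free RNA alone would give. Adrb3 sat on its free-RNA marks in WT ASPC, endothelial and mural nuclei, while Adcy5 was far above them in mural nuclei of both libraries and in KO adipocyte nuclei.

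The 2 adenylyl cyclases went in opposite directions. Adcy3, a cyclase known in adipocytes as a cold-induced gene (chromosome 12 from 4133103 to 4213525), had a level of 514 CPM (508 to 521) in WT and 88.5 CPM (84.0 to 93.1) in KO adipocyte nuclei. It was 5.81-fold lower in KO, at a log2 ratio of -2.54 (-2.62 to -2.46). Adcy5, the main cyclase of striatum and also found in heart (chromosome 16 from 35154877 to 35305738), had a level of 22.1 CPM (20.7 to 23.5) in WT and 122 CPM (116 to 127) in KO adipocyte nuclei. It was 5.50-fold higher in KO, at a log2 ratio of 2.46 (2.35 to 2.57), and 4.84% of the genes tested had a higher ratio. This direction did not hold in every group of adipocyte nuclei. The log2 ratio was -0.45 among those richest in white-adipocyte markers. It was -1.12 under the other cluster naming rule, which left the largest WT adipocyte cluster unnamed. In WT, 4.69% of the adipocyte nuclei held 61.2% of the Adcy5 UMIs of that class. Thinned shares of adipocyte nuclei with a UMI went from 37.4% in WT to 7.97% in KO for Adcy3 and from 1.60% to 8.35% for Adcy5. For Adcy5 the thinned share in endothelial nuclei was 0.746% in WT and 0.447% in KO.

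In the other classes neither cyclase showed the same size of difference above free RNA. Adcy5 was highest in mural nuclei, at 142 CPM (116 to 173) in WT and 125 CPM (98.0 to 158) in KO, and the log2 ratio was -0.18 (-0.64 to 0.27). In KO the adipocyte and mural levels of Adcy5 overlapped, while in WT the adipocyte level overlapped that of ASPCs (17.9 CPM, 11.6 to 26.4). Adcy3 in KO was highest in mural nuclei, at 224 CPM (187 to 267), and the levels of adipocyte, ASPC (84.8 CPM) and immune nuclei (83.9 CPM) overlapped. Its log2 ratio was -0.34 (-0.59 to -0.07) in ASPCs, -0.26 (-0.46 to -0.05) in immune and 0.24 (-0.12 to 0.60) in mural nuclei. In endothelial nuclei Adcy3 was at the free-RNA level in both libraries, with 88.2 CPM against 93.3 in WT and 15.0 against 19.3 in KO.

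Of the phosphodiesterases, Pde3b (chromosome 7 from 114415281 to 114539251) encodes the enzyme through which insulin limits lipolysis. Its level in adipocyte nuclei was 3317 CPM (3299.7 to 3333) in WT and 1559 CPM (1539.6 to 1578) in KO, at a log2 ratio of -1.09 (-1.11 to -1.07). Pde4d, a cAMP-specific enzyme of a large gene (chromosome 13 from 108449948 to 109953461), had 2701 CPM (2686 to 2716) in WT and 1256 CPM (1239 to 1273) in KO, at -1.10 (-1.13 to -1.08). Both were only just past the 2-fold limit, and 16.05% and 15.8% of the genes tested had a lower ratio than Pde3b and Pde4d.

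Pde3b was not lower in KO immune nuclei, where it had 850.4 CPM (813 to 889) in WT and 914 CPM (899.6 to 928) in KO. These levels were above free RNA, at 398 CPM in WT and 124 CPM in KO. In endothelial nuclei Pde3b was at the free-RNA level, with 608 CPM against 634 in WT and 275 against 277 in KO. Pde4d was as high in mural as in adipocyte nuclei within each library, at 2669.9 CPM (2549.7 to 2794) in WT and 1281 CPM (1189.6 to 1378) in KO, and its mural log2 ratio of -1.06 (-1.19 to -0.93) was past the same limit.

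Pde4b, the cAMP phosphodiesterase of many leukocytes (chromosome 4 from 102087543 to 102607259), behaved differently. In adipocyte nuclei it had 20.5 CPM (19.2 to 21.9) in WT and 7.35 CPM (6.11 to 8.78) in KO, at a log2 ratio of -1.48 (-1.76 to -1.20). The KO level did not exceed the 7.74 CPM that free RNA would give. The endothelial markers summed over the same nuclei were also lower in KO, at 155 CPM against 581 in WT, and their part in the Pde4b ratio was not tested. In immune nuclei Pde4b was 2.28-fold higher in KO, with 50.3 CPM (41.5 to 60.5) in WT and 115 CPM (109.9 to 119.8) in KO, at a log2 ratio of 1.19 (0.92 to 1.48), where 6.11% of 12501 genes were at least 2-fold higher. The immune nuclei of the libraries were spread differently over clusters, as given above, and the part of this in the ratio was not tested. In endothelial nuclei it had 92.8 CPM (84.7 to 101) in WT and 168 CPM (152 to 185) in KO, at 0.85 (0.66 to 1.05). In ASPC and mural nuclei the intervals of the ratio included 0. Of all Pde4b UMIs in kept nuclei, 32.9% lay in adipocyte and 4.06% in immune nuclei in WT, against 2.67% and 45.1% in KO, while adipocyte nuclei held 56.4% of all UMIs in WT and 22.7% in KO, and immune nuclei 2.83% and 24.5%.

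Prkar2b encodes the RIIβ regulatory subunit of PKA, the form enriched in adipose tissue (chromosome 12 from 31958476 to 32061296). Its level in adipocyte nuclei was 3074 CPM (3058 to 3090.5) in WT and 2501 CPM (2477 to 2525) in KO, 1.23-fold lower in KO at a log2 ratio of -0.30 (-0.31 to -0.28). Of the 9 genes it was the nearest to no change in adipocyte nuclei. In WT endothelial nuclei it had 498 CPM against 531 from free RNA, and in WT mural nuclei 413 CPM against 429.7. Immune nuclei were above free RNA, with 506 CPM (477 to 536) against 333 in WT and 247 CPM (240.0 to 255) against 90.04 in KO. The log2 ratios of -1.24 in endothelial and -1.03 in immune nuclei were further from 0 than that of adipocyte nuclei, and the part of free RNA in them was not tested.

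**Figure D2:**
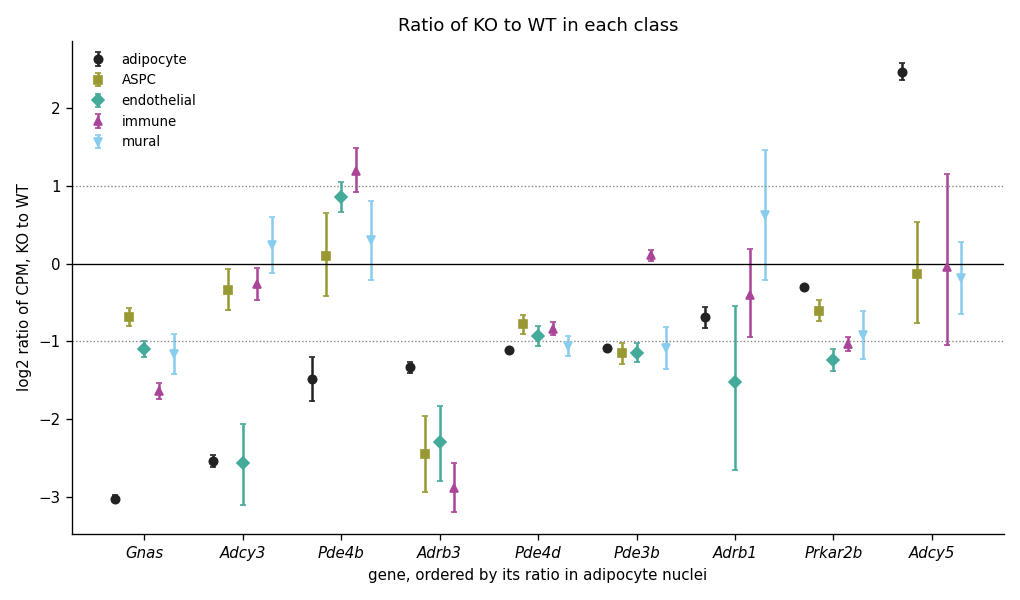
Log2 ratio of KO to WT CPM for each gene (x axis, ordered by the ratio in adipocyte nuclei), with a symbol per class and bars for exact 95% intervals of the ratio of 2 Poisson counts; points with under 50 UMIs over both libraries are not drawn, and dotted lines mark 2-fold. The ratio of Adcy5 was 2.46 in adipocyte nuclei and between -0.18 and -0.04 in ASPC, immune and mural nuclei, and Pde4b was at -1.48 in adipocyte and 1.19 in immune nuclei.

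Over the other classes, the genes past 2-fold differed. In endothelial nuclei 6 of the 8 genes with at least 50 UMIs were at least 2-fold lower in KO, beside 12.3% of all 10261 genes there, and 0 were higher, beside 3.46%. Of these 6, all but Gnas had WT intervals that did not lie above the free-RNA level. In ASPCs Adrb3 and Pde3b were lower among 8 genes and 0 were higher, beside 10.4% and 4.49% of 10934 genes. In immune nuclei Adrb3, Prkar2b and Gnas were lower and Pde4b was higher among 9 genes, beside 11.4% and 6.11% of 12501 genes. In mural nuclei Pde3b, Pde4d and Gnas were lower among 8 genes and 0 were higher, beside 7.88% and 4.95% of 4529 genes.

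Adipocyte nuclei were then grouped by their UMIs of the 4 white markers, none of which is among the 9 genes, per 10000 UMIs. Of the WT nuclei 2012 had 0 such UMIs and 237 had at least 10 per 10000, and of the KO nuclei 621 and 541, respectively. The nuclei with at least 10 were not alike in the markers that led them, since in WT Nnat led with 1837 CPM, against 698 CPM of Npr3, and in KO Npr3 led with 1941 CPM, against 220.4 CPM of Nnat. Nnat was also lower in KO in nuclei with 2 to 10 such UMIs, at 17.2 CPM against 79.2 in WT. Adcy5 was higher in nuclei with more white-marker UMIs within each library. In WT its level was 5.56 CPM (4.32 to 7.05) in nuclei with 0 and 260.3 CPM (239 to 283) in nuclei with at least 10, a 46.8-fold difference. In KO it was 46.4 CPM (39.3 to 54.5) and 191 CPM (178 to 204), a 4.11-fold difference. The difference between genotypes was not the same in these groups, with an 8.35-fold higher level in KO among nuclei with 0 white-marker UMIs (log2 ratio 3.06, 2.64 to 3.50) and a lower level in KO among those with at least 10 (-0.45, -0.60 to -0.29). Median depth in the nuclei with 0 was 6156 UMIs in WT and 4664 in KO.

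In WT, 61.2% of the Adcy5 UMIs of adipocyte nuclei came from Leiden cluster 0, which held 229 adipocyte nuclei or 4.69% of them, and no KO nucleus lay in this cluster. Its Adcy5 level was 265 CPM (244 to 287), against 3.42 CPM (2.76 to 4.20) in the 3371 adipocyte nuclei of cluster 3. Cluster 0 was rich in white markers, with 1368 CPM of Nnat, 489.6 CPM of Slc7a10, 372 CPM of Npr3 and 101 CPM of Lep, against 36.8, 9.34, 119 and 6.88 CPM in cluster 3. Ucp1 was lower in cluster 0, at 689.5 CPM against 1969.8. The clustering did not use the 9 genes, the other pathway genes or the brown and white markers.

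Other genes varied less among adipocyte nuclei. In WT, Adcy3 went from 546 CPM in nuclei with 0 white-marker UMIs to 297 CPM in those with at least 10 (log2 ratio -0.88), and Gnas from 2295 to 1112 CPM (-1.05). Adrb3 went the other way in WT, from 324 to 457 CPM (0.49, 0.39 to 0.60), and in KO it had 136 and 132 CPM (-0.04, -0.22 to 0.14). Within the nuclei with 0 white-marker UMIs the log2 ratios of KO to WT were -2.98 for Gnas, -2.26 for Adcy3, -1.25 for Adrb3, -1.06 for Pde3b, -0.75 for Pde4d, -0.09 for Adrb1 and -0.07 for Prkar2b. Within those with at least 10 they were -2.27, -1.98, -1.79, -1.20, -0.98, -0.49 and -0.22 in the same order. Pde4b, from 196 WT and 21 KO UMIs in the first group and 38 and 33 in the second, was at -1.29 (-2.02 to -0.64) and -1.33 (-2.05 to -0.62). Gnas, Adcy3, Adrb3, Pde3b and Pde4b were thus at least 2-fold lower in both groups of nuclei, with intervals for Pde4b that reached inside that limit, and Pde4d in neither.

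**Figure D3:**
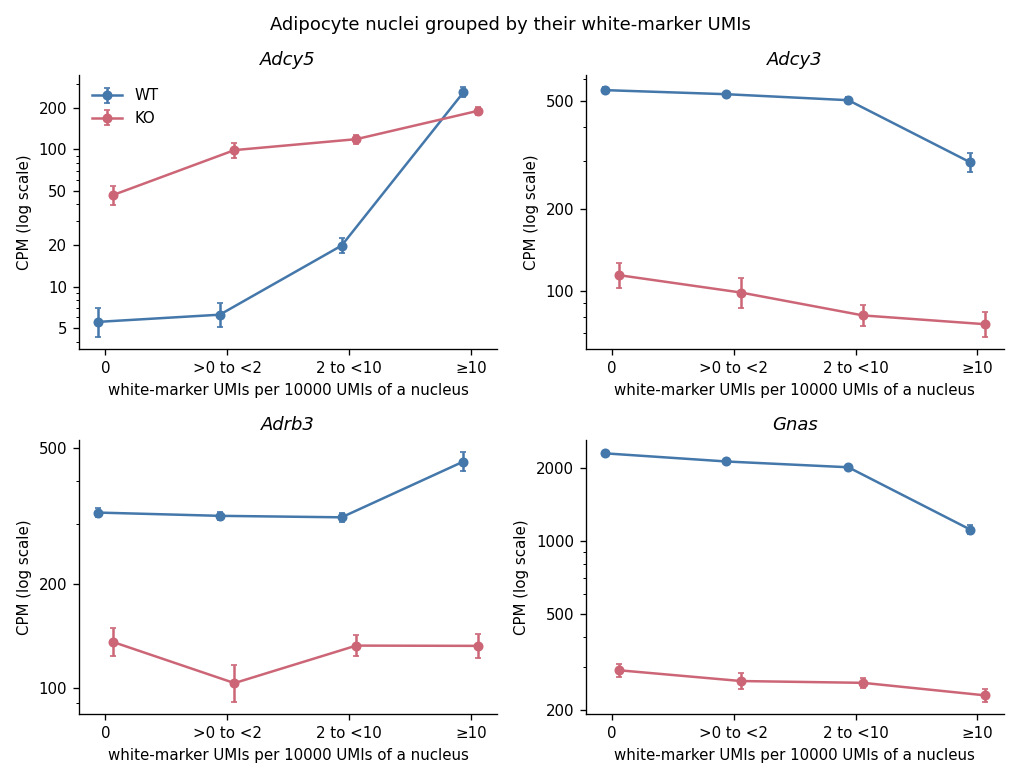
Level in CPM (log scale) of Adcy5, Adcy3, Adrb3 and Gnas in adipocyte nuclei grouped by white-marker UMIs per 10000 UMIs, with WT in blue, KO in red and bars for exact 95% Poisson intervals. Adcy5 in WT went from 5.56 CPM in the first group to 260.3 CPM in the last, where it was above KO, and the other 3 genes were lower in KO in each group.

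The wider pathway was read from lists of 106 genes, the 9 included, of which 96 had at least 50 UMIs in adipocyte nuclei. At least 2-fold lower in KO were 32 of these 96 and higher were 13, beside the 17.5% and 19.3% of all genes given above, and their median log2 ratio was -0.32. Without the 9 genes, 26 of 87 were lower and 12 were higher, with a median of -0.20.

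Among receptors, 6 of 15 were lower and 2 higher (40% and 13.3%), beside the same shares of all genes. Adra1a, the α1A-adrenergic receptor, was lower at 959 CPM in WT and 376 CPM in KO. Tshr, the thyrotropin receptor, which also couples to the stimulatory G protein, was higher, at 45.2 CPM in WT and 467 CPM in KO (log2 ratio 3.37, 3.30 to 3.44). Ptger3, a prostaglandin receptor that couples to inhibitory G proteins, was higher as well, at 38.5 and 130.4 CPM. Among 11 G protein genes Gnas and Gnal were lower, a share near that of all genes, and Gnai1, an inhibitory α-subunit, was higher, at 58.5 CPM in WT and 214 CPM in KO (1.87, 1.80 to 1.95). Of 8 cyclases, Adcy3 and Adcy4 were lower and Adcy5 and Adcy7 higher, and Adcy6 and Adcy9 lay between the limits with log2 ratios of -0.59 and -0.45. The 2 lower and 2 higher of 8 were shares near those of all genes, 17.5% and 19.3%. The KO level of Adcy4, 2.77 CPM (2.03 to 3.70), was not distinguishable from the 2.32 CPM of free RNA, and the endothelial markers, lower in the same KO nuclei as given for Pde4b, were not tested for a part in its ratio. Adcy7 had 17.2 CPM (15.2 to 19.3) in KO against 10.6 of free RNA, and 6.21 CPM against 1.96 in WT. Immune markers in the same nuclei were higher in KO, at 338 CPM against 139.7 in WT, and their part in the Adcy7 ratio was not tested.

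Among 18 phosphodiesterases 9 were lower and 3 higher (50% and 16.7%), beside 17.5% and 19.3% of all genes, so that the share higher was near that of all genes. Pde7b, a cAMP-specific enzyme, had the lowest ratio of these at -3.44 (-3.50 to -3.38), with 1525 CPM in WT and 141 CPM in KO. Pde4a (89.8 and 14.2 CPM, -2.66) and Pde3a (295 and 50.3 CPM, -2.55) followed. The 3 that were higher were Pde2a, Pde5a and Pde7a. None of the 9 genes of PKA subunits and inhibitors was at least 2-fold lower. The catalytic subunits Prkaca and Prkacb had log2 ratios of -0.50 and -0.18, and the 2 that were higher, a share near the 19.3% of all genes, were the PKA inhibitor genes Pkib and Pkig, while Pkia of the same family was at 0.19 (-0.20 to 0.56). The KO level of Pkib, 2.59 CPM (1.88 to 3.49), did not exceed the 3.096 CPM that free RNA would give, while Pkig had 58.6 CPM against 7.19. Of 10 genes of PKA anchoring proteins and of EPAC, the exchange factors that cAMP activates, 1 was lower and 2 were higher (10% and 20%), beside the same 17.5% and 19.3%. The anchor Akap12 was higher at 8.38 CPM in WT and 51.5 CPM in KO (2.62, 2.44 to 2.80), as was Rapgef3, and the more abundant anchor Akap1 was lower at 464 and 184 CPM (-1.33, -1.39 to -1.28). Of the 7 genes that end receptor signals, Rgs2, a regulator of G protein signalling, was lower with 140.5 and 13.0 CPM (-3.44, -3.64 to -3.24), as was the receptor kinase Grk3 with 403 and 72.9 CPM (-2.47). These 2 were 28.6% of the list, beside 17.5% of all genes. The other 5, the kinases Grk2, Grk5 and Grk6 and the arrestins Arrb1 and Arrb2, lay between the limits with ratios of 0.36 to 0.89. The median of the list was thus 0.50.

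Genes known to be induced by cAMP had the lowest ratios of all lists, with 6 of 8 at least 2-fold lower, beside 17.5% of all genes, and a median of -3.69. Nr4a3, an orphan nuclear receptor, had 99.5 CPM in WT and 2.35 CPM in KO (-5.40, -5.90 to -4.95). Its relatives Nr4a2 (-4.06) and Nr4a1 (-2.92) were lower too. Ucp1 had 1765 and 62.0 CPM (-4.83, -4.92 to -4.74), and Ppargc1a, a coactivator of mitochondrial genes, 5118 and 516 CPM (-3.31). Dio2, the deiodinase that activates thyroid hormone, had 25608 UMIs in WT and 18 in KO adipocyte nuclei. Per1 and Fos lay between the limits, at -0.36 and -0.53. In the CREB arm 4 of 10 genes were lower, Atf2, Crem, Sik1 and Sik3, and Crtc1 was higher (40% and 10%, beside 17.5% and 19.3% of all genes, with a list median of -0.17), while Creb1 itself was at 0.32 (0.25 to 0.38). In the other classes 6 of 8 of these genes were at least 2-fold lower in ASPC, endothelial and immune nuclei, beside 10.4%, 12.3% and 11.4% of all genes, and 4 of 6 in mural nuclei, beside 7.88%. Several of their WT levels there were near free RNA, such as Ppargc1a with 721 CPM against 709 in endothelial and 571 against 574 in mural nuclei, and the part of free RNA in these counts was not tested. Ucp1 in endothelial nuclei, which should lack it, was at 664 CPM in WT and 18.0 CPM in KO, beside free-RNA levels of 633 and 16.1 CPM.

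**Figure D4:**
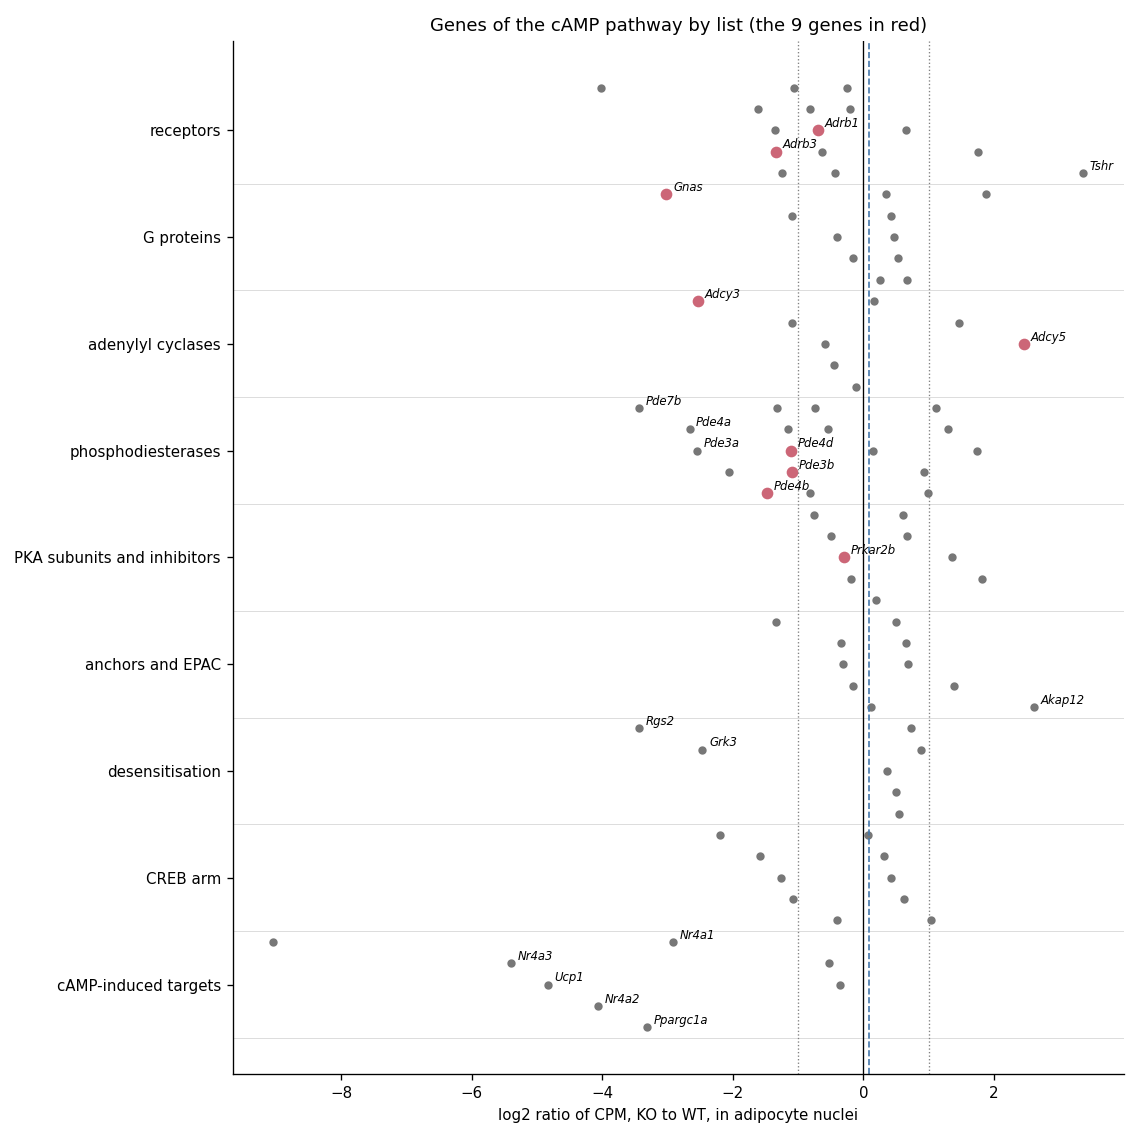
Log2 ratio of KO to WT CPM in adipocyte nuclei (x axis) for each gene with at least 50 UMIs, by list (rows); the 9 genes are in red, dotted lines mark 2-fold and the dashed line marks the median of all 15315 genes, 0.08. The cAMP-induced genes have the lowest median, -3.69, with 6 of 8 past 2-fold on the left. Receptors, G proteins, cyclases, phosphodiesterases, anchors and EPAC, and the CREB arm have genes past 2-fold on both sides.

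Across the 10 sums of 5 classes in 2 libraries, the genes most like each of the 9 were found by Pearson's r of log2(CPM + 1) over 11534 genes with at least 500 UMIs, as a description, since the sums of a library share depth and free RNA. For Adrb3 they were Plin5 (r = 0.987), Spata17 (0.983) and Fabp3 (0.980), and for Prkar2b Fam126b (0.994), Aifm2 (0.992) and Etfa (0.990). For Adcy5 they were Wscd2 (0.969), Aoc3 (0.949) and Itga7 (0.949), for Adcy3 Impa1 (0.974), and they included Mef2c for Pde4b (0.931). Gnas was nearest to Nsun5 (0.965), and Gm20721, which overlaps it, was the third at 0.938.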

How the data were processed

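Reads had been aligned to GRCm38, and the authors deposited UMI counts per gene and nucleus with no normalization. Whether introns were counted is not given in the sources used here. Filters were a minimum of 200 genes, a maximum of 10% mitochondrial UMIs, and depth and gene number no further than 3 median absolute deviations from the library's median of logged values. Free RNA was taken from the shallowest 10% of kept nuclei (1281 WT and 1139 KO, medians of 832 and 775 UMIs). No empty droplets were used, so the estimate can hold RNA of real nuclei and be too high. For example, Prkar2b in WT endothelial nuclei had 498 CPM (479 to 518) against an estimate of 531. A class needed at least 5 marker UMIs and a sum above free RNA, and nuclei with high sums of more than 1 list, which may be doublets, were left out. UMIs were summed per class and library and scaled to 1000000 (CPM). Where an alternative subtracted a level, the remainder was floored at 3 counts. Leiden clusters came from 2000 variable genes without pathway genes and brown and white markers, 30 components, 15 neighbours and resolution 0.5, on both libraries together, with doublet scores by Scrublet (scanpy 1.11.5, Python 3.11.15).

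Named genes were the 9 in every class compared, Srsf1, markers, the pathway genes with the 12 largest ratios in adipocyte nuclei (among those with 200 or more UMIs in all and 20 or more in each library), and the genes most like each of the 9. Some genes that this rule or the lists name are not reported here. Other members of the lists and the overlapping genes were chosen after their values were seen. The 9 genes and the lists were chosen with earlier results of these data known, and the class thresholds were set after the data had been seen. The scripts' ratios were checked on simulated counts. Alternatives were no filter on nuclei, limits of 500 to 5000 genes and 5% mitochondrial UMIs, means over nuclei, mitochondrial genes left out, the endothelial level subtracted, centred ratios, classes by Leiden clusters, a minimum of 10 marker UMIs, the top 10% of Scrublet scores removed, thinning to 1000 UMIs and a minimum of 200 UMIs for the lists. Places come from GENCODE and promoters from RefSeq.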

Additional observations from a re-analysis of the deposited data

Results flagged for a closer look

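Pde4b was singled out because its difference between genotypes had opposite signs in 2 classes. On the log2 scale, KO over WT was -1.48 for adipocyte nuclei and 1.19 for immune nuclei. The difference between the classes was not tested, since there was 1 library per genotype. The adipocyte value rests on 122 UMIs in KO, at the level that free RNA would give.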

How the results depend on the processing

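The 6 genes lower and the 1 higher by 2-fold in adipocyte nuclei, and the 32 and 13 of the pathway lists, stayed within 1.5 times these counts under every alternative run except the Leiden naming rule given last. Over all alternatives run, 5 to 6 of the 9 genes were lower, and 26 to 37 pathway genes were lower and 10 to 18 higher. The log2 ratio of Adrb3 left its counting interval but kept its direction and stayed past 2-fold, at -1.20 as the mean over nuclei, -1.10 with the endothelial level subtracted, -1.42 when centred on the median ratio, -1.48 with classes by Leiden clusters, -1.12 when thinned to 1000 UMIs and -1.26 with free RNA subtracted, which was added after the data had been seen, as was a depth window of 5000 to 10000 UMIs. Of 103 values of the other 8 genes under these alternatives, 58 lay within the counting interval of the reported value, 43 outside it with the same direction, and 2 had the other direction. With the endothelial level subtracted, Pde4b gave no ratio, since both libraries were at the floor, and KO Gnas reached the floor of 3 counts. Pde4b was at -6.54 with free RNA subtracted, where KO was at the floor, -1.79 without the top 10% of Scrublet scores and -1.05 as the mean over nuclei.

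Leiden clusters took the class of at least 50% of their nuclei, a rule set after the data had been seen and the third tried. The first, the fold of the marker sum over the nuclei of both libraries pooled, left the largest KO adipocyte cluster unnamed and gave no comparison. The second, the fold of the marker sum over the rest of the library, left the largest WT adipocyte cluster unnamed, and so compared KO with 239 WT nuclei of cluster 0 and 10 of cluster 22. The genes lower by 2-fold then differed from those reported, since Adcy5 reversed to -1.12 and joined them and Pde4b (-0.87) and Pde4d (-0.75) left them. Adrb3 was at -2.01, Gnas at -1.87, Adcy3 at -1.61 and Adrb1 at 0.16, and 0 genes were higher. No paired analysis was possible because there was 1 library per genotype, and leaving out a replicate was not possible for the same reason. Depth limits genes under about 50 UMIs in a class, such as Adrb1 in ASPCs.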
